A study of Mus musculus with 8 samples.

Results

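Cdkn1a, Cdkn2a, Cdkn2b, Trp53, Mdm2, Ccng1, Gdf15, Lmnb1 and Plaur are the senescence and p53 response genes described here. They were taken by gene symbol, and they make up 9 of the 30153 mouse gene identifiers in the table. Kidney RNA was measured in 8 C57/BL6 mice that all carried Hap-II, a haplotype (II) of the human gene for angiotensin receptor type 1, and all ate a western diet. The groups were 4 adult mice and 4 aged mice, 1 library each, so the comparison asks how these genes differ with age in mice that the series' title calls hypertensive. No library analysed here came from a mouse without the transgene or on another diet. The sources used here do not give the ages in numbers, the sex of the animals or the promoter of the transgene. Values are TPM, a relative abundance scaled to a fixed total and corrected for transcript length, and the read depth behind them is unknown.

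Cellular senescence is a lasting exit from the cell cycle. It is held by a p53 route, in which p53 switches on the inhibitor p21, and by the INK4 inhibitors p16 and p15, which block the cyclin D kinases, and both end at the retinoblastoma protein. In the kidney these inhibitors are known for their appearance in tubule cells with age and after injury, together with secreted factors and with loss of lamin B1.

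None of the 8 genes that could be tested passed the limma test of adult against aged kidneys, and the age groups overlapped in all 9. Their levels differed widely: Ccng1 averaged 71.5 TPM over the 8 libraries, Mdm2, Trp53 and Cdkn1a averaged 13.2, 7.59 and 5.17 TPM, and Plaur, Cdkn2b, Gdf15 and Lmnb1 averaged 3.34, 2.14, 2.03 and 1.36 TPM. Cdkn2a was listed at 0 in 6 of 8 libraries. Libraries with and without Y-linked transcripts did not overlap in Cdkn1a and Mdm2, 2 of the 8 tested members beside 22.6% of all genes, and for Mdm2 the sign of that difference depended on the scaling.

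Facts of the libraries that touch these results come first. The sum of 4 Y-linked genes was 0.485 to 2.30 TPM in replicates 1 and 2 of each age group and 34.7 to 50.6 TPM in replicates 3 and 4. The labels do not name this split, which is balanced over age, and it is called the class of a library below. Mitochondrially encoded protein genes held 19.6% to 26.1% of the nominal TPM total in adult libraries and 26.8% to 46.9% in aged libraries, so every other gene's TPM is measured against a larger mitochondrial share in the aged group. The median log2 difference of all 11796 genes tested was -0.11 between ages and -0.46 between classes. All 10 kidney markers, from the proximal tubule, loop, distal tubule, collecting duct, podocyte and endothelium, were present at 4.41 TPM or more in every library. Their summed level varied widely within each age group, from 695.0 to 3446.5 TPM in adult and from 601.3 to 3118.1 TPM in aged libraries. Adult replicate 1 and aged replicate 2 had the highest sums. The part of this spread in the members' values was not tested.

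2 of the members carry a close match to the p53 consensus response element in the sequence around an annotated start. These windows are shown because the element is the means by which p53 reaches its targets. The consensus is a pair of abutting 10-base sites, it was searched on both strands with at most 1 mismatch in its 20 bases, and each window runs from 250 bases before to 50 bases after a RefSeq start on GRCm38.p6. Capitals mark the match, and each window is written 5′ to 3′ on its gene's own strand.
Cdkn1a, chr17:29090729-29091028, plus strand: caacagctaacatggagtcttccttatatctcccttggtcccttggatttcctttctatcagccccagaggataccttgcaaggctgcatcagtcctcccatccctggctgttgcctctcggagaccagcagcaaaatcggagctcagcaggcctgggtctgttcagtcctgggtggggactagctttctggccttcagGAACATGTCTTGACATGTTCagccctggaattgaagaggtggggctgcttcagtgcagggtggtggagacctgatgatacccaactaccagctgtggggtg
Ccng1, chr11:40755237-40755536, minus strand: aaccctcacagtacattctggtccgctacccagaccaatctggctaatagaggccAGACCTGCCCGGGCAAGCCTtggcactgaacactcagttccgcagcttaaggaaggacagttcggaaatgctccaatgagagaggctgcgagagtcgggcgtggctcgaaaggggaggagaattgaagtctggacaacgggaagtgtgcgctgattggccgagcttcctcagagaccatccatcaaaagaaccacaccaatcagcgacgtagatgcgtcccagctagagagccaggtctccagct

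The match in Cdkn1a lies at chr17:29090928-29090947 and begins 51 bases before the annotated start around which the window shown was taken. It differs from the consensus at position 11, counted from its 5′ end. The window at another Cdkn1a start, chr17:29093519-29093818, held no such match. The match in Ccng1 lies at chr11:40755462-40755481, begins 195 bases before the start and differs at position 5. Such a match was found in 29 of 32851 windows (0.0883%). Counted by gene, it was found in 29 of 27025 genes (0.107%), and in 2 of the 8 members that had a window. Of 24 other p53 target genes with a window, 2 held one. The match is a description of these letters, and no value here measures p53 binding.

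Trp53 encodes p53 itself and lies on chromosome 11 from 69580359 to 69591873 on the plus strand (GRCm38, as are all gene positions here). Its level was 16.003, 6.71, 4.16 and 6.15 TPM in the 4 adult kidneys, and 5.04, 10.1, 5.07 and 7.41 TPM in the 4 aged kidneys. Adult replicate 1 stood highest, and the other 7 libraries of both ages overlapped between 4.16 and 10.1 TPM. The means were 8.26 ± 5.28 TPM and 6.91 ± 2.41 TPM (SD, n = 4 each), a log2 difference of -0.12 (SE 0.38) after log2(TPM + 1). Fold changes of low genes come out too small on this scale. The limma adjusted p of 1.00 missed the threshold. Without adult replicate 1 the log2 difference was 0.22, and with mitochondrial genes removed it was 0.15, so the sign of this difference is not fixed. Of the 31-base words in its transcripts, 10.1% also occur in other genes, the highest share among the members.

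Mdm2, the ubiquitin ligase that marks p53 for breakdown and is itself a p53 target, lies on chromosome 10 from 117688875 to 117710758 on the minus strand. Its level was 16.6, 13.5, 11.4 and 12.4 TPM in adult kidneys, and 13.7, 16.8, 9.61 and 11.7 TPM in aged kidneys. The age groups covered nearly the same range, and the 4 higher values were replicates 1 and 2 of both ages. The log2 difference between ages was -0.07 (SE 0.26), and its sign turned to 0.03 with size factors and 0.06 with quantile normalization.

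Cdkn1a encodes p21, the cyclin-dependent kinase inhibitor through which p53 stops the cell cycle, and lies on chromosome 17 from 29090976 to 29100727 on the plus strand. Adult kidneys held 5.64, 5.05, 1.48 and 4.62 TPM. Aged kidneys held 10.7, 7.60, 2.13 and 4.18 TPM. The highest pair of values came from aged replicates 1 and 2, but aged replicates 3 and 4 lay within the adult range. Adults averaged 4.20 ± 1.86 TPM and aged mice 6.14 ± 3.76 TPM (SD, n = 4 each). The log2 difference of 0.39 (SE 0.45) had a 95% interval from -0.59 to 1.36, and limma gave an unadjusted p of 0.406 and an adjusted p of 1.00. This interval includes both no difference and a log2 difference above 1, so the 8 animals do not settle the size of an age difference in p21 RNA. Leaving out 1 library at a time gave log2 differences from 0.06, without adult replicate 3, to 0.73, without aged replicate 3.

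Ccng1 encodes cyclin G1, a p53 target that takes part in the feedback between p53 and Mdm2, and lies on chromosome 11 from 40748552 to 40755311 on the minus strand. It was the most abundant member, above 90.6% of the genes tested. Its level was 71.6, 69.5, 67.0 and 62.2 TPM in adult kidneys, and 74.3, 70.4, 78.9 and 78.4 TPM in aged kidneys. All but 1 aged value exceeded all adult values: aged replicate 2 lay just under adult replicate 1. Its means of 67.6 ± 4.04 and 75.5 ± 3.95 TPM (SD, n = 4 each) differed by 1.12-fold, a log2 difference of 0.16 (SE 0.20, limma adjusted p = 1.00). This SE is pulled toward the spread of other genes of like level, so it is not the replicate spread of Ccng1 itself. The difference stayed positive in TPM rescaled without mitochondrial genes, at 0.46 (limma unadjusted p = 0.0341, adjusted p = 0.9401), after quantile normalization, at 0.42 (limma adjusted p = 0.790), and with size factors, at 0.26. An exact two-sided permutation test of the TPM means gave p = 0.0571, where 0.0286 is the smallest value that 4 against 4 allows. In TPM as deposited Ccng1 had the lowest coefficient of variation of the tested members, 7.85% against 18.9% for Mdm2, but after division by size factors it was 30.0% against 11.1% for Mdm2.

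**Figure D1:**
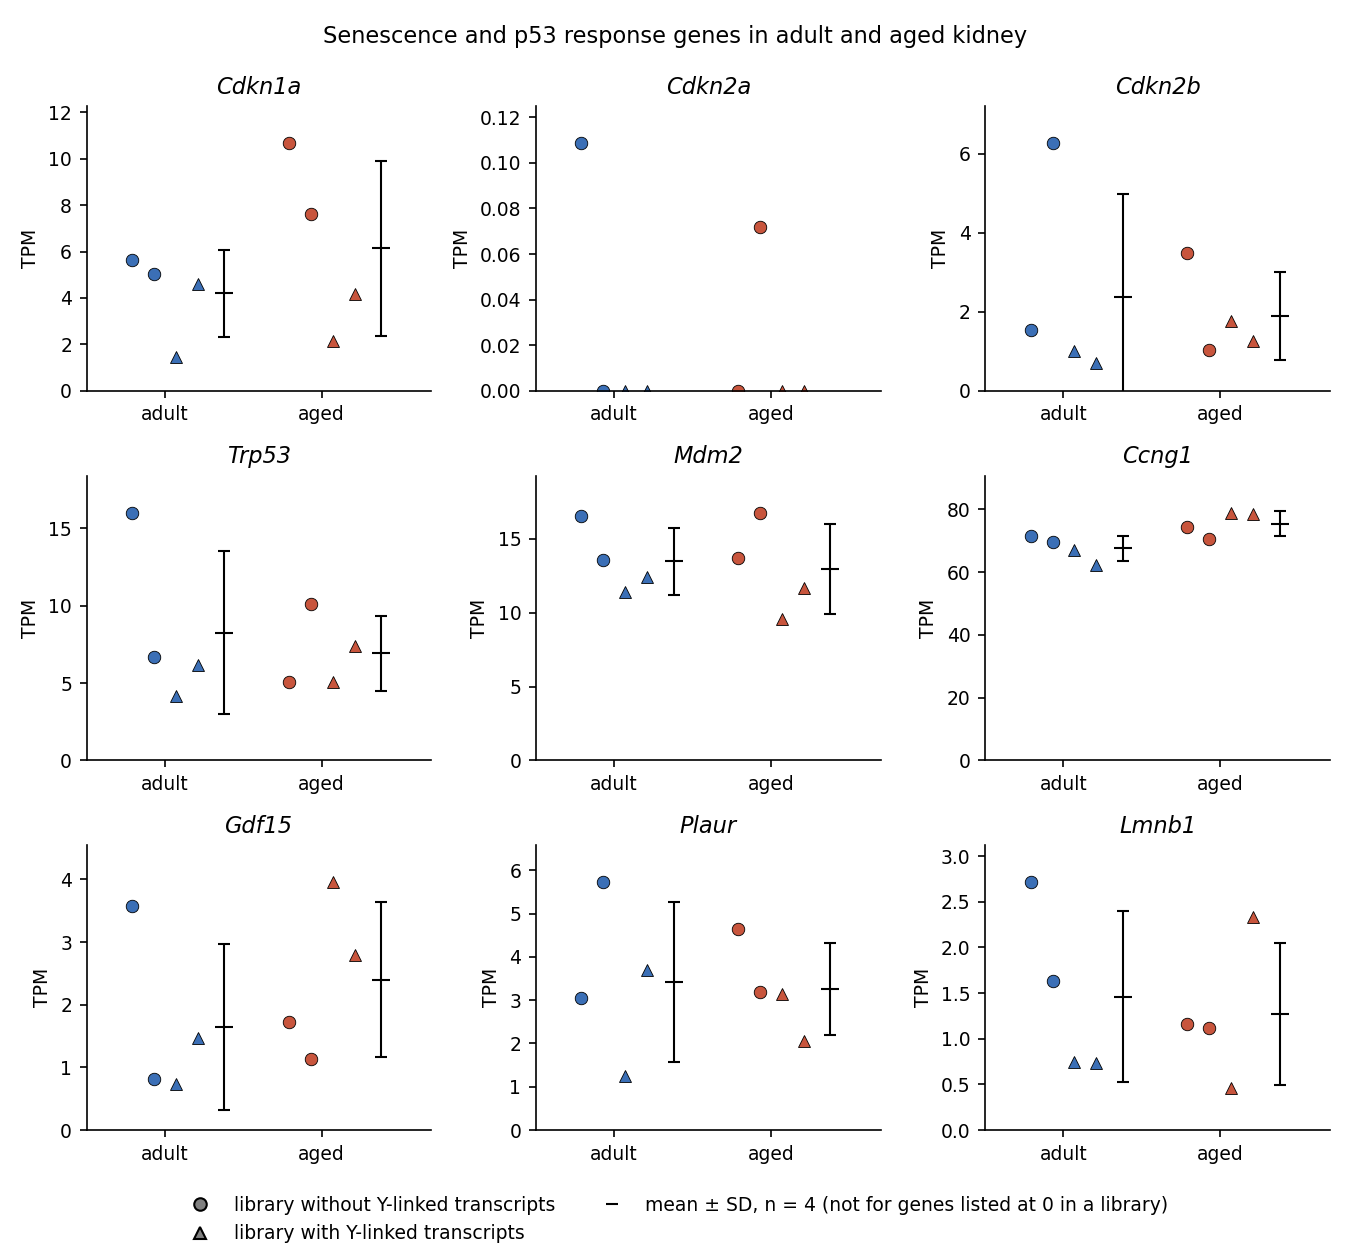
TPM (y axis, linear, from 0) of the 9 genes in adult and aged kidneys, with 1 point per library, the shape of the point giving its class and the bars giving mean ± SD of 4 libraries. The age groups overlap in every panel, Ccng1 lies between 62.2 and 78.9 TPM throughout, and in Cdkn1a and Mdm2 the circles lie above the triangles.

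Cdkn2a and Cdkn2b are neighbours on the minus strand of chromosome 4, at 89274471 to 89294653 and 89306299 to 89311039. Cdkn2a encodes the INK4 inhibitor p16Ink4a and, from a second start 12427 bases away, p19Arf, which protects p53 from Mdm2. The table holds 1 value for the gene, so these products cannot be told apart here. Cdkn2a was listed at 0.109 TPM in adult replicate 1, at 0.0719 TPM in aged replicate 2 and at 0 in the other 6 libraries. Each age group thus had 1 library above 0, and the gene lay below the minimum mean of 1 TPM that the tests required. An exact two-sided permutation test of its TPM gave p = 1.00. The read depth is unknown, so these zeros do not show that p16 RNA is absent.

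Cdkn2b encodes p15Ink4b, a further inhibitor of the cyclin D kinases. Its level was 1.54, 6.27, 1.02 and 0.695 TPM in adult kidneys, and 3.49, 1.04, 1.77 and 1.27 TPM in aged kidneys. Adult replicate 2 stood apart at the top, and aged replicate 1 came next. The log2 difference of -0.03 (SE 0.45) became 0.42 without adult replicate 2 and 0.07 with size factors, so it has no stable direction. Adult replicate 2 also held the highest summed level of 5 urothelial markers, 17.9 TPM against 2.69 to 9.30 TPM in the other libraries, and of 4 fat cell markers, 5.99 TPM against 0.0732 to 2.23 TPM. Red cell markers had their highest sums in aged replicate 1 (14661 TPM) and adult replicate 2 (10649 TPM), the same pair that led for Cdkn2b, against 933 to 6665 TPM elsewhere. Whether RNA from such cells took part in the Cdkn2b values was not tested. In bulk tissue, fewer cells of a type and less RNA per cell cannot be told apart.

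Lmnb1 encodes lamin B1 of the nuclear lamina, whose loss is a common mark of senescent cells in culture. It was the lowest of the tested members, above 5.59% of the genes tested. Its level was 2.71, 1.64, 0.749 and 0.734 TPM in adult kidneys, and 1.17, 1.12, 0.461 and 2.33 TPM in aged kidneys. The highest and the lowest value lay in different age groups, but 3 of 4 aged values lay inside the adult range. The log2 difference was -0.10 (SE 0.35, limma adjusted p = 1.00), and it was 0.12 without adult replicate 1 and 0.06 with mitochondrial genes removed.

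Gdf15 encodes a secreted factor of the TGF-beta superfamily that p53 and the integrated stress response both induce. It lies on chromosome 8 from 70629393 to 70632456 on the minus strand. Adult kidneys held 3.58, 0.821, 0.734 and 1.46 TPM, and aged kidneys held 1.72, 1.14, 3.95 and 2.79 TPM. The high values were spread over both ages: aged replicate 3, adult replicate 1 and aged replicate 4 were the top 3. Its means were 1.65 ± 1.33 and 2.40 ± 1.24 TPM (SD, n = 4 each), with a log2 difference of 0.40 (SE 0.38, 95% interval -0.43 to 1.24, limma adjusted p = 1.00). It was 0.20 without aged replicate 3 and 0.71 without adult replicate 1. Those 3 libraries also had the highest sums of 9 immediate early genes, which respond within minutes to stimuli and to tissue handling: 171.7, 118.0 and 107.6 TPM, against 32.9 to 76.0 TPM in the other 5. The part of such a response in the Gdf15 values was not tested. Gfral, the receptor through which Gdf15 acts in the hindbrain, was listed at 0 in every library.

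Plaur encodes the urokinase receptor, a surface protein of senescent cells and of activated myeloid cells, and lies on chromosome 7 from 24462484 to 24475968 on the plus strand. Its level was 3.06, 5.72, 1.25 and 3.69 TPM in adult kidneys, and 4.65, 3.19, 3.14 and 2.05 TPM in aged kidneys. All 4 aged values lay inside the adult range. The log2 difference was 0.01 (SE 0.36, 95% interval -0.77 to 0.80). The summed level of 10 myeloid markers ran from 104.0 to 184.5 TPM in adult and from 68.8 to 259.9 TPM in aged libraries, and their part in the Plaur values was not tested. Of the neutrophil markers among them, S100a8 held 1.96 to 16.5 TPM and S100a9 5.46 to 27.2 TPM, while Ly6g was at 0 in 7 of 8 libraries.

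Across the 8 members tested, 4 had a positive and 4 a negative log2 difference (35% and 65% of all genes), and their median was -0.01 where the median of all genes was -0.11. By limma, 0 of 8 passed the adjusted threshold of 0.05, against 0% of all 11796 genes, and 0 of 8 had an unadjusted p under 0.05, against 3.39%. In none of the 8 did the adult and aged libraries separate, against 2.46% of all genes (0.348% higher and 2.11% lower in aged). The moderated standard errors of 0.20 to 0.45 on the log2 scale bound what this fit of 4 animals against 4 could show. A difference that misses the threshold does not show equal levels.

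**Figure D2:**
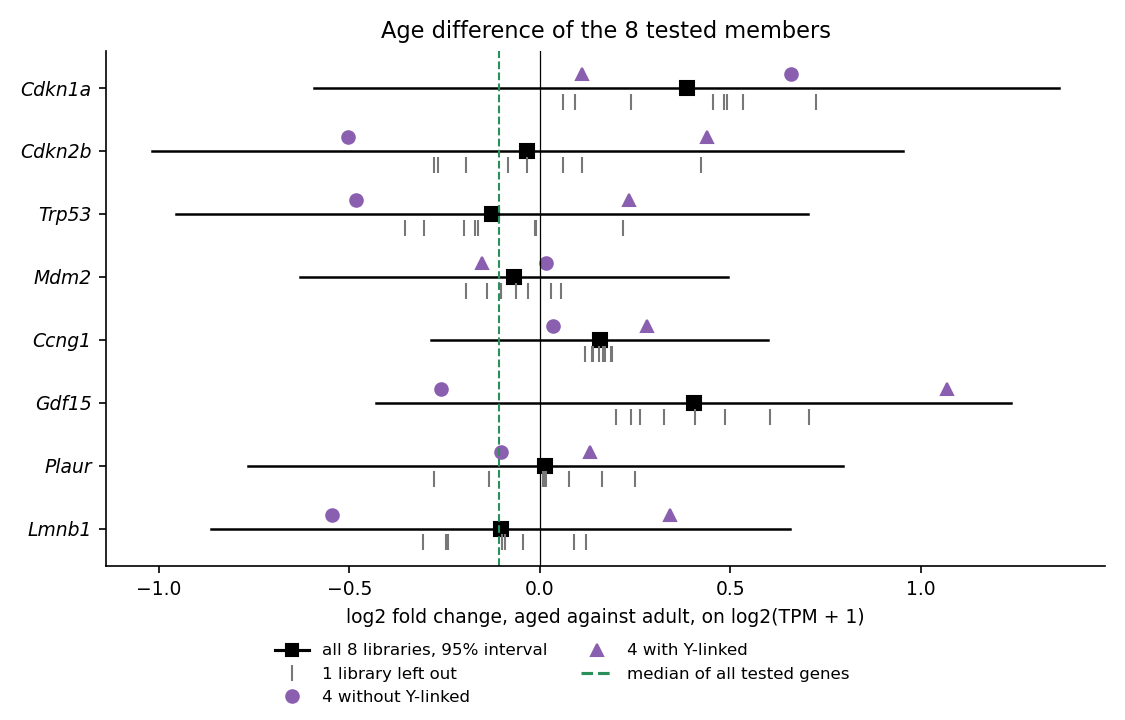
Log2 difference on log2(TPM + 1) of aged against adult kidneys (x axis) for the 8 tested members, with squares and bars for all 8 libraries and their 95% interval, ticks for each library left out, circles and triangles for the libraries without and with Y-linked transcripts, and a dashed line at the median of all genes, -0.11. Every interval crosses 0, and the Gdf15 triangle lies at 1.07 while its circle lies at -0.26.

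The class of the library was then compared with age held in the model. Cdkn1a was lower in libraries with Y-linked transcripts: it ranged from 1.48 to 4.62 TPM there and from 5.05 to 10.7 TPM in those without, so the 2 sets of 4 did not overlap. The means were 3.10 and 7.24 TPM, and the log2 difference was -1.04 (SE 0.30, 95% interval -1.72 to -0.36). The unadjusted p was 0.00696, and the limma adjusted p of 0.0526 missed the threshold. Over the alternatives the adjusted p ran from 0.0265, without adult replicate 4, to 0.307 with quantile normalization, where the log2 difference was -0.58. Other measures moved with class as well: the median log2 difference was -0.94 for kidney markers and -1.96 for red cell markers, and the mitochondrial share averaged 33.6% with against 25.0% without Y-linked transcripts. Between 10663 and 11428 genes reached 1 TPM in libraries with and between 11802 and 12293 in libraries without them. The part of these in the Cdkn1a difference was not tested. The direction was the same in all alternatives run for Cdkn1a, and without adult replicate 4 the difference of -1.33 passed the threshold.

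Mdm2 also separated by class, from 13.5 to 16.8 TPM without and from 9.61 to 12.4 TPM with Y-linked transcripts. Its log2 difference of -0.40 (SE 0.18, limma adjusted p = 0.137) turned to 0.13 with size factors and 0.08 with quantile normalization. So 2 of 8 members separated by class, both lower, beside 22.6% of all genes separated and 21.3% separated and lower. By limma 0 of 8 members passed the adjusted threshold, beside 12.4% of all genes, with 133 higher (1.13%) and 1331 lower (11.3%) as deposited, or 347 higher and 292 lower with size factors. A negative difference was seen in 7 of 8 members and in 89.2% of all genes. The members' median was -0.48 and that of all genes -0.46, so as a set the members were shifted about as much as the transcriptome.

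The other members differed by class to unlike degrees. As deposited, Cdkn2b had a log2 difference of -0.74, Plaur of -0.57, Trp53 of -0.56 and Lmnb1 of -0.40, with limma adjusted p from 0.166 to 0.323. Over the alternatives run, these shrank to as little as -0.34, -0.12, -0.036 and -0.056 in that order. Their size thus depended on the processing. Gdf15 had a positive difference of 0.18. Ccng1 was level as deposited (-0.00, moderated SE 0.16, moderated 95% interval -0.36 to 0.35). This difference became 0.56 by size factors, 0.36 by quantile normalization and 0.19 after mitochondrial genes were taken out. Cdkn1a and Ccng1 are both p53 targets and carry the matches shown above, and the class difference of Cdkn1a was the more negative under each of these scalings. That contrast between the 2 genes was not tested.

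**Figure D3:**
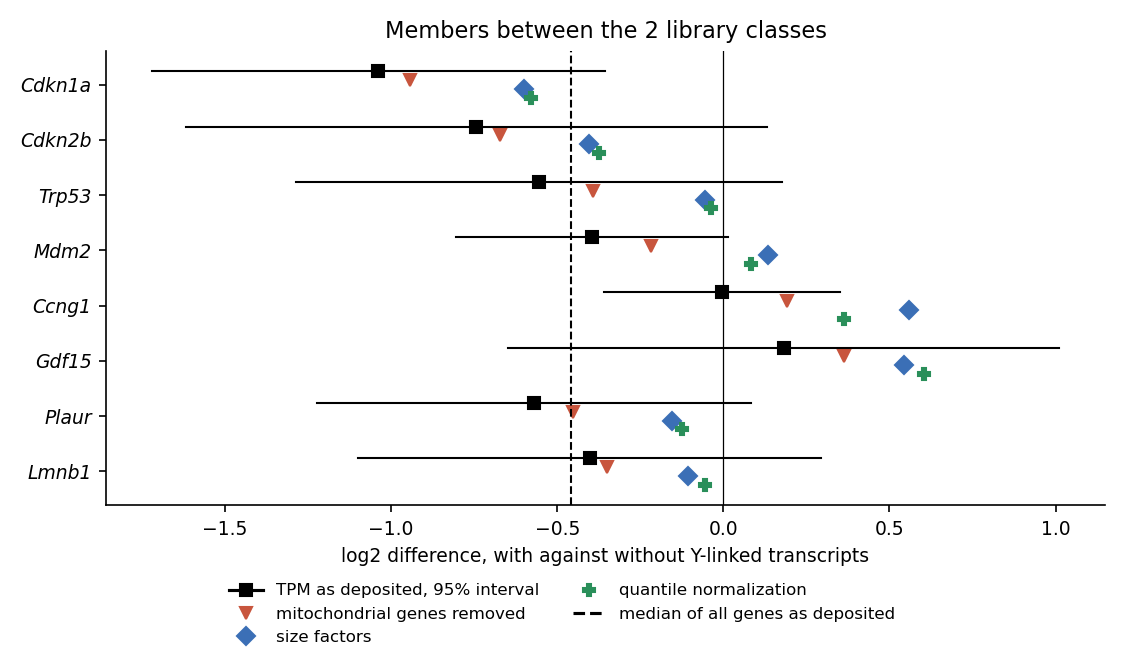
Log2 difference (x axis) of the 4 libraries with against the 4 libraries without Y-linked transcripts for the 8 tested members, with squares and bars for TPM as deposited and their 95% interval, and other symbols for 3 other scalings. Cdkn1a lies below 0 under each scaling (-1.04 as deposited, -0.58 with quantile normalization), whereas Mdm2 and Ccng1 lie on different sides of 0 under different scalings.

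Whether the age difference itself differed by class was tested with an interaction term. In the limma fit 0 of 8 members passed, beside 0.0339% of all genes, and 0 of 8 had an unadjusted p under 0.05, beside 2.08%. Gdf15 came nearest: the difference was 1.33 (SE 0.65, 95% interval -0.13 to 2.79), with an unadjusted p of 0.0697 and an adjusted p of 1.00, and it ran from 0.66 without adult replicate 1 to 1.99 without adult replicate 2. Its aged minus adult log2 difference was -0.26 without Y-linked transcripts, where the means were 2.20 and 1.43 TPM, and 1.07 with them, where the means were 1.10 and 3.37 TPM (2 libraries each). For Cdkn1a the age difference was 0.66 without and 0.11 with Y-linked transcripts. Its interaction of -0.55 (SE 0.63) missed the threshold as well, and became 0.04 without adult replicate 4.

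The members differed in how many other genes shared their pattern over the 8 libraries. Likeness was the Pearson correlation of log2(TPM + 1) with each of 11795 other genes, given here as a description over 8 libraries that share class, mitochondrial share and scaling. Mdm2 had 1487 genes with r over 0.9, led by Rptor (0.998), Map3k21 (0.992) and Kng1 (0.991). Trp53 had 1202, led by Uba1 (0.990), Ttll12 (0.989) and Acot6 (0.987). Cdkn1a had 133, led by Acvrl1 (0.988), Lpcat1 (0.974) and Fmnl2 (0.974). Mdm2 and Trp53 thus followed patterns that many genes of the table share, and Cdkn1a followed one that fewer share.

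The remaining members had fewer like genes still. Lmnb1 had 44, led by Gmip (0.971), 1110008L16Rik (0.967) and Ctdnep1 (0.963). Cdkn2b had 12, led by Sbspon (0.952), Hacd4 (0.946) and Prkar2b (0.944), and Plaur had 10, led by Proser2 (0.962), Ifit3 (0.946) and Map2 (0.944). Gdf15 had 4, led by Zfp36 (0.954), Plk2 (0.948) and Junb (0.925), of which Plk2 is a p53 target and Zfp36 and Junb are immediate early genes. Ccng1 had 1, Tbx3 (0.938), followed by Smim10l1 (0.90) and Zc3h13 (0.875). Among the members themselves, the highest correlations were Trp53 with Mdm2 (0.77), Cdkn1a with Mdm2 (0.73), Trp53 with Lmnb1 (0.72) and Cdkn2b with Plaur (0.70). Cdkn1a correlated with Trp53 at 0.42 and with Ccng1 at 0.03. The lowest correlation was that of Mdm2 and Ccng1, at -0.255.

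The wider pathways were read from 10 related lists with 133 tested genes in all. Of these, 63 had positive and 70 negative log2 differences with age (35% and 65% of all genes). Their median was -0.01 where that of all genes was -0.11. By limma 0 of the 133 passed the adjusted threshold, beside 0% of all genes. An unadjusted p under 0.05 was reached by 5 of them (3.76%, beside 3.39% of all genes): Serpine2, Eed, Ccl8, Cdkn2d and Bmi1. The adult and aged libraries separated in 5 (3.76%, beside 2.46% of all genes), namely Serpine2, Tbx3 and Trp53inp1 with higher and Bmi1 and Cdkn2d with lower aged values. Taken over both directions, these shares lie near those of the whole table. By direction, 0.348% of all genes separated with higher and 2.11% with lower aged values. The list genes with higher aged values exceed the whole table's share for that direction, but this rests on Serpine2, Tbx3 and Trp53inp1 alone. The lists were chosen with earlier results of these data known, so the excess is a description only, and it was not tested.

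**Figure D4:**
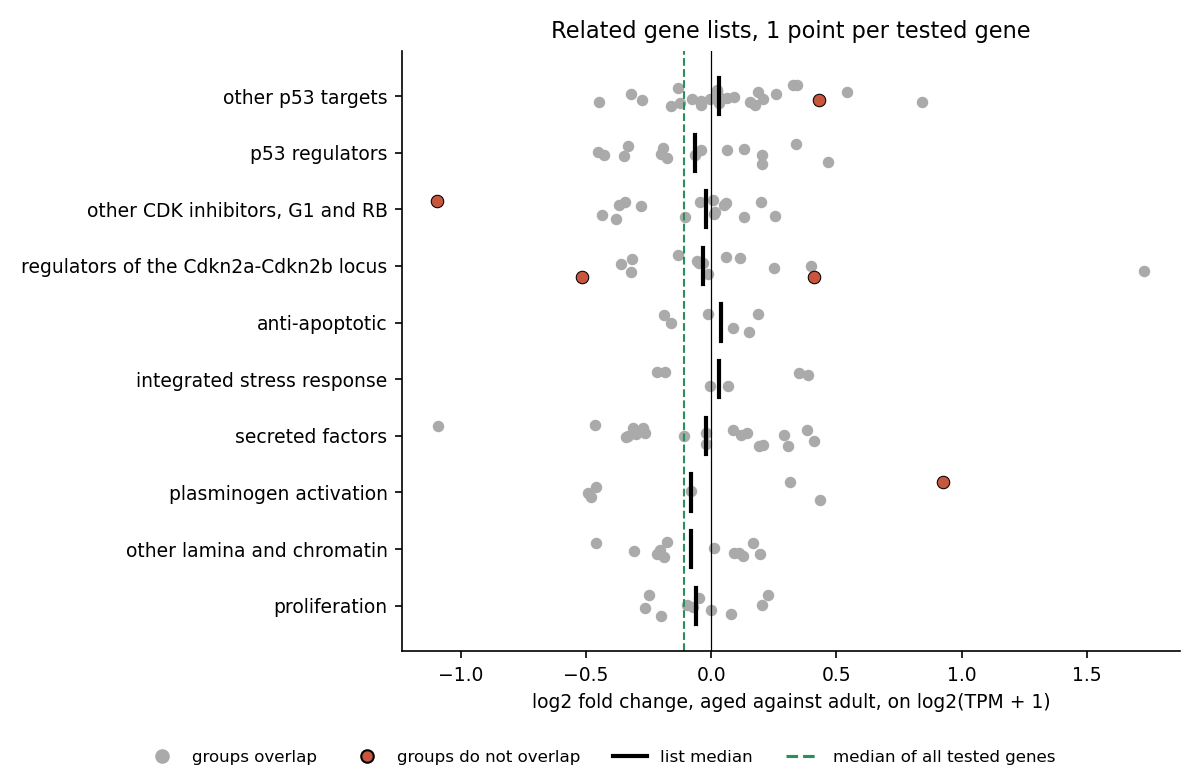
Log2 difference of aged against adult kidneys (x axis) of every tested gene in the 10 related lists, 1 point per gene, with a bar at each list's median and a dashed line at the median of all genes, -0.11. List medians lie between -0.08 and 0.04, and red points mark the 5 genes whose age groups do not overlap.

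Other targets of p53 were mixed. Of 26 tested, 16 had positive and 10 negative differences, where 35% and 65% of all genes did. Their median was 0.03 beside -0.11 for all genes, and no set test was run. Trp53inp1, a stress-induced partner of p53, averaged 4.20 ± 0.574 TPM over the adults and 6.01 ± 0.684 TPM over the aged mice (SD, n = 4 each), a log2 difference of 0.43 (SE 0.24, limma unadjusted p = 0.0979). Its aged values of 5.06 to 6.62 TPM all lay above the adult values of 3.57 to 4.95 TPM. Btg2, an antiproliferative p53 target, had a difference of 0.84 (SE 0.49) that rested largely on 48.9 TPM in aged replicate 3, and was 0.34 without that library and 1.11 without adult replicate 1. Within the libraries without Y-linked transcripts it was -0.32, and within those with them 2.00 (limma adjusted p = 0.0558). Aged replicate 3 also had the highest sum of the 9 immediate early genes, 171.7 TPM. The part of such a response in the Btg2 values was not tested. Bax, the pro-apoptotic target, had a difference of -0.45 (SE 0.27).

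Regulators of p53 showed no common direction either, with 6 of 15 positive and 9 negative and a median of -0.06. Mdm4, the Mdm2 relative that holds p53 inactive, averaged 6.16 ± 2.47 and 8.62 ± 2.09 TPM (log2 difference 0.47, SE 0.31). Rpl11, a ribosomal protein that binds Mdm2, had a difference of -0.45 (SE 0.27), and Cop1, a further p53 ligase, of -0.43 (SE 0.31). All 3 missed the threshold, with limma unadjusted p from 0.128 to 0.195.

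Among the other kinase inhibitors and their G1 partners, 8 of 16 were positive and 8 negative. Cdkn2d, which encodes p19Ink4d, held 5.71, 5.82, 4.53 and 3.48 TPM in adult kidneys. In aged kidneys it was listed at 0 in replicate 1 and at 3.02, 2.12 and 3.37 TPM in the others. The age groups did not overlap, but the gap between 3.37 and 3.48 TPM was narrow. The log2 difference of -1.09 (SE 0.44, limma unadjusted p = 0.0286, adjusted p = 1.00) was -0.61 without aged replicate 1. Cdk4, the kinase that p15 and p16 block, had a difference of -0.43 (SE 0.28) and Ccng2, a cyclin G1 relative, of -0.34 (SE 0.26).

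The chromatin regulators of the Cdkn2a and Cdkn2b locus included Bmi1 and Eed, 2 of the 5 genes with an unadjusted p under 0.05. Bmi1, the Polycomb protein that represses this locus, was 20.8, 24.4, 27.3 and 23.96 TPM among the adults, and 14.6, 19.8, 15.5 and 16.5 TPM among the aged. Every aged value lay under every adult value. Its log2 difference of -0.51 (SE 0.23, limma unadjusted p = 0.0443) did not pass after adjustment, and it lay between -0.64 and -0.23 over the alternatives. Tbx3, a repressor of p19Arf, was 0.587 to 1.07 TPM among the adults and 1.24 to 1.86 TPM among the aged (log2 difference 0.41, SE 0.24). Eed, a core subunit of the Polycomb complex that methylates histone H3, was listed near 0 in 3 adult libraries (0.00719 to 0.0394 TPM), at 2.27 TPM in adult replicate 2 and at 2.10 to 7.61 TPM in aged kidneys. Its log2 difference was 1.73 (SE 0.46, limma adjusted p = 1.00), and it ran from 0.66, with a pseudocount of 5, to 3.77, with a pseudocount of 0.1. Within the libraries without Y-linked transcripts it was 1.11 (limma adjusted p = 0.999) and within those with them 2.35 (limma adjusted p = 0.0128, a fit in which 60 genes passed), each from 2 against 2 libraries. Most cells are known to express Eed, and whether the values near 0 are failed estimates cannot be settled from TPM. Over the whole list 6 of 15 were positive and 9 negative.

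Secreted factors were led by a gene with a negative difference. Of 37 genes on the list 20 were tested, 9 positive and 11 negative, and Il6 was listed at 0 in every library. Ccl8, a monocyte chemokine, was 2.39, 5.17, 3.11 and 1.05 TPM among the adults, and 2.02, 0.654, 0.707 and 0 TPM among the aged (log2 difference -1.09, SE 0.41, limma unadjusted p = 0.0207). Its age groups overlapped. Ccl2, a related chemokine, had a difference of 0.38 (SE 0.30) and Igfbp5 of 0.41 (SE 0.33).

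Serpine2 encodes protease nexin 1, an inhibitor of urokinase, the ligand of the Plaur protein. It held 7.06, 7.67, 3.18 and 6.10 TPM in the adult libraries, and 13.2, 13.4, 9.39 and 11.7 TPM in the aged. No libraries overlapped, and the means of 6.001 ± 1.99 and 11.9 ± 1.86 TPM (SD, n = 4 each) differed by 1.99-fold. Its log2 difference of 0.93 (SE 0.29) had a limma unadjusted p of 0.00839 and an adjusted p of 1.00, and it stayed positive, from 0.64 to 1.24, over the alternatives. Below the filter, Ccne1 with lower and Tnf with higher aged values also separated, were chosen after their values were seen, and stayed at or under 0.549 TPM. No share of separated genes below the filter is given here to set beside them. For Tnf the gap was narrow, from 0.169 TPM in adult replicate 1 to 0.197 TPM in aged replicate 2. Lrp1, a receptor that clears urokinase bound to its inhibitors, had a difference of -0.48 (SE 0.27) and Mrc2, a partner of the urokinase receptor, of 0.43 (SE 0.31). The plasminogen list as a whole had 3 positive and 4 negative genes of 7 tested, with Plau, urokinase itself, at -0.49 (SE 0.43).

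**Figure D5:**
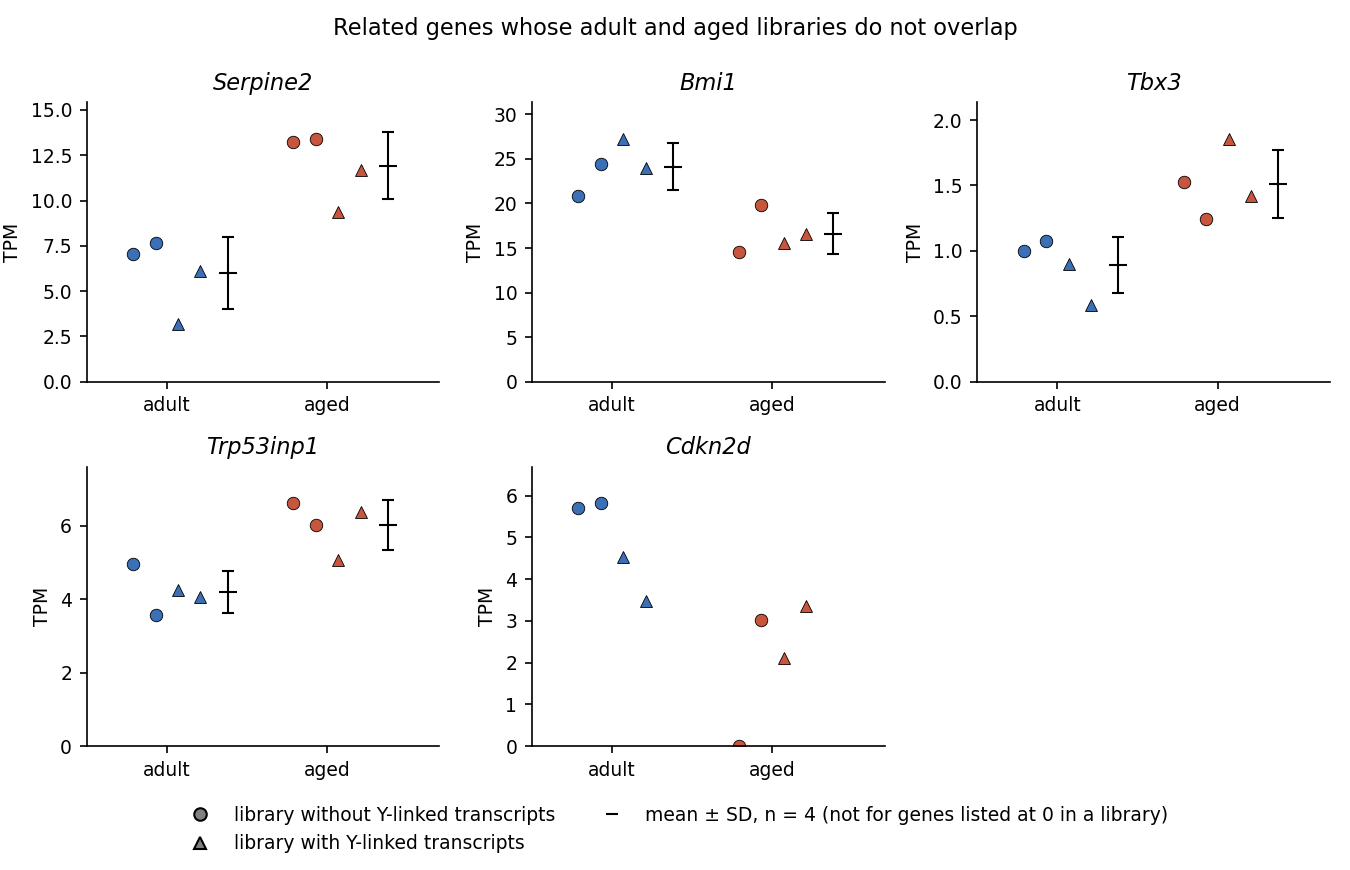
TPM (y axis, linear, from 0) of 5 related genes in adult and aged kidneys, with 1 point per library and bars for mean ± SD of 4 libraries where no library is listed at 0. Serpine2, Tbx3 and Trp53inp1 lie higher and Bmi1 and Cdkn2d lower in all 4 aged libraries, and none passed the adjusted threshold.

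Genes of dividing cells were more often negative, as all genes were. Of 17, 10 were tested, 3 positive and 7 negative (35% and 65% of all genes) with a median of -0.06. The summed level of the list ran from 43.8 to 95.2 TPM in adult and from 38.9 to 95.3 TPM in aged libraries. Pcna, the replication clamp, held 16.5 to 37.0 TPM and Tyms, which makes thymidylate, 8.85 to 34.3 TPM. Mcm2, a replication licensing factor, had a difference of -0.25 (SE 0.30), and Mki67, a marker of cycling cells, stayed at or under 0.429 TPM.

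Other genes of the nuclear lamina and senescence chromatin split evenly, 6 of 12 positive and 6 negative. Lmna, which encodes lamin A and C, averaged 12.3 ± 5.82 and 8.46 ± 3.01 TPM (log2 difference -0.46, SE 0.35) and Banf1, a DNA-binding partner of the lamina, 64.2 ± 14.8 and 51.0 ± 8.24 TPM (-0.31, SE 0.25). Neither passed the limma threshold (unadjusted p of 0.217 and 0.239).

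The integrated stress response, which also induces Gdf15, had 3 of 6 tested genes in each direction. Atf3 averaged 1.32 ± 0.659 and 2.01 ± 0.747 TPM (log2 difference 0.39, SE 0.30), Ddit3 17.5 ± 7.77 and 21.6 ± 5.99 TPM (0.35, SE 0.33). Anti-apoptotic genes, on which senescent cells are known to rely, had 3 of 6 in each direction, and Bcl2l2 had the smallest p among them with a difference of 0.19 (SE 0.30).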

How the data were processed

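RNA of 8 kidneys, 4 adult and 4 aged, was compared. Per the labels' protocols, a Qiagen kit was used for extraction, and polyadenylated RNA went into stranded libraries. The deposited values are TPM, already computed by the authors. Per the submitters' processing notes, kallisto, DESeq2 and GRCm38 were used, with no roles or versions given, so the step that made the TPM is not given in the sources used here. Column totals ran from 924798 to 950974 TPM. TPM keeps no depth, so no counting interval was given.

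Of 30153 identifiers 29732 (98.6%) matched a symbol, and 7 that shared a symbol were summed. Genes with a mean of at least 1 TPM were tested on log2(TPM + 1), with a pseudocount of 1, with the intensity-trend test of limma (version 3.58.1, under R 4.3.3), two-sided, with Benjamini-Hochberg adjustment over all genes and a threshold of 0.05. The class fit had age as covariate, and the interaction fit had age, class and their product. Classes were cut at 10 TPM for the sum of the Y-linked genes Uty, Kdm5d, Ddx3y and Eif2s3y. The script was tested on simulated data with independent noise for each gene and library. That simulation had no shared shift by class or mitochondrial share, so it checked the code and not how the test behaves on these libraries. Exact permutations used all 70 assignments. The replicates are separate animals by the design text. Their numbers were used only in an alternative fit.

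Named genes are all members, up to 3 genes of each related list with the smallest unadjusted p, and the 3 genes most like each member. Named outside this rule were the list genes Pcna, Tyms, Mki67, Plau, Il6, Gfral, Ccne1 and Tnf. The cell markers S100a8, S100a9 and Ly6g were also named outside it. The members and lists were chosen with earlier results of these data known. The alternatives tried were a pseudocount of 0.1 or 5, a filter at a mean of 5 TPM or none, scaling by size factors, by quantiles or without mitochondrial genes, limma with array weights, robust estimation or no trend, a replicate block, class as covariate, each class alone, and each library left out. Gene positions are from GENCODE M21 on GRCm38 and promoter windows from RefSeq. 1 gene of the related lists is not reported here.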

Additional observations from a re-analysis of the deposited data

Results flagged for a closer look

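In 6 of 84 groups of 4 libraries 1 library lay far from the other 3, with a gap to the nearest library, as a share of the group's range, above Dixon's 95% critical value. Chance flags about 1 in 20 such groups. Cdkn2b was at 6.27 TPM in adult replicate 2, with the other adult libraries at 0.695 to 1.54 TPM. Cdkn2a was at 0.109 TPM in adult replicate 1 and at 0.0719 TPM in aged replicate 2, with the other 3 libraries of each group at 0. With 3 libraries at 0 any value above 0 is flagged, so these 2 of the 6 were fixed by the zeros. Among related genes, Btg2 was at 48.9 TPM in aged replicate 3, Eed at 2.27 TPM in adult replicate 2 and Ddit3 at 30.5 TPM in aged replicate 2. The causes of these values were not tested.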

How the results depend on the processing

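The number of genes past the threshold between ages was 0 as reported, with 400 at an unadjusted p under 0.05. It was 1 with array weights, 3 within the libraries without and 60 within those with Y-linked transcripts (2 against 2 each), and 0 to 2 when 1 library was left out. Between classes it was 1464 as reported, 759 with no filter, 639 with size factors, 635 with quantile normalization, 687 with mitochondrial genes removed, 4291 with array weights and 400 to 2048 with 1 library left out, the lowest without aged replicate 3. For the interaction it was 4 as reported, 0 with no filter, 2 with size factors and 2 to 16 with 1 library left out, the highest without aged replicate 2. The median of all genes between ages was -0.11 as deposited, -0.02 by size factors, 0.00 by quantile normalization and 0.15 after removal of mitochondrial genes. Between classes it was -0.46, 0.01, -0.01 and -0.31 in that order.

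No member passed the threshold between ages under any alternative run, and 142 of 172 values kept their direction. The direction turned as follows. Cdkn2b: 0.046 with a pseudocount of 0.1, 0.069 with size factors, 0.034 with quantile normalization, 0.20 with mitochondrial genes removed, 0.34 with array weights, 0.44 with Y-linked transcripts, and -0.28 to 0.42 with 1 library left out. Trp53: 0.15 with mitochondrial genes removed, 0.059 with array weights, 0.23 with Y-linked transcripts, and -0.35 to 0.22 with 1 library left out. Mdm2: 0.027 with size factors, 0.065 with quantile normalization, 0.21 with mitochondrial genes removed, 0.017 without Y-linked transcripts, and -0.19 to 0.055 with 1 library left out. Gdf15: -0.26 without Y-linked transcripts. Lmnb1: 0.062 with mitochondrial genes removed, 0.35 with array weights, 0.34 with Y-linked transcripts, and -0.31 to 0.12 with 1 library left out. Plaur: -0.012 with a pseudocount of 5, -0.19 with array weights, -0.10 without Y-linked transcripts, and -0.28 to 0.25 with 1 library left out. Cdkn1a and Ccng1 kept a positive sign under all alternatives run.

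Between classes Mdm2 turned to 0.13 with size factors and 0.084 with quantile normalization, Ccng1 to 0.56 and 0.36 under the same scalings and to 0.19 with mitochondrial genes removed, and with 1 library left out Ccng1 ran from -0.043 to 0.042 and Gdf15 from -0.028 to 0.58. The interaction ran from -1.14 to 0.040 for Cdkn1a and from -0.30 to 0.76 for Plaur with 1 library left out, and was 0.014 for Mdm2 with mitochondrial genes removed. Of 650 values of related genes 634 kept direction and call. Btg2 turned to -0.32 and Igfbp5 to -0.033 without Y-linked transcripts, Mcm7 to 0.012 with array weights and Rrm2 to -0.023 without aged replicate 1 (0.42 at most with 1 library left out). With mitochondrial genes removed Hmgb2, Atf4, Birc2 and Bcl2l1 turned to 0.059, 0.11, 0.11 and 0.10, with quantile normalization Atf4 and Bcl2l1 to 0.064 and 0.014, and with array weights Hmgb2, Birc2 and Bcl2l1 to 0.038, 0.042 and 0.031. With 1 library left out Birc2 ran from -0.31 to 0.018 and Bcl2l1 from -0.40 to 0.11, both highest without aged replicate 3. The causes were not tested.

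Adult and aged libraries share replicate numbers, but deviations of same-numbered libraries correlated at 0.04, 0.18, 0.49 and 0.42, so the numbers were not taken as pairs. The replicate block gave 0 genes past the threshold and 916 at an unadjusted p under 0.05, and changed no call of a member or related gene. Depth is unknown for these libraries, so the precision of low values such as those of Cdkn2a cannot be given.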
